A study of Heliconius erato cyrbia and Heliconius erato demophoon with 32 samples.

Results

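Expression was compared between the main wing of the iridescent butterfly Heliconius erato cyrbia and that of the non-iridescent H. e. demophoon at 50% of pupal development. The main wing was the forewing together with the posterior hindwing, and the libraries were chosen by their labels for tissue, subspecies and stage, which gave 8 of the 32 libraries of the series. Animals 1 to 4 were cyrbia (males 1 and 4, females 2 and 3) and animals 5 to 8 were demophoon (females 5, 6 and 7, male 8). The labels give no treatment and no mutation for either group, both came from captive stocks reared on Passiflora biflora, and total RNA was extracted from whole wing tissue. Because whole tissue was used, fewer cells of a type and less RNA per cell cannot be told apart. The labels give each animal its own number and do not show which animals shared parents or a rearing batch. The 8 main wing libraries at 70% development, from other animals, and the 8 anterior hindwing libraries of animals 1 to 8 were used beside these. Positive differences are higher in cyrbia throughout.

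Butterfly wing colour is carried by scales, each of which is the flattened outgrowth of a single cell. A scale cell extends over a scaffold of actin filaments in the pupa and then secretes a chitinous cuticle, whose upper surface forms long parallel ridges. In iridescent scales of Heliconius the ridges bear layered cuticle lamellae that reflect light by interference. The mid-pupal wing is the stage at which scales elongate and their surface begins to be patterned. The comparison asked which loci differed between subspecies with and without this structural colour, although the animals also differ in ancestry across the whole genome, and these cannot be told apart within this contrast.

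Loci were counted by assembly number (MSTRG). Of the 24118 loci in the table, 13055 also carried the ID of a reference gene model and are called annotated, and 11063 did not and are called unannotated. No ID is paired with a gene name, so no locus could be given a role and no list of pathway genes or of scale cell markers could be counted. The tissue label could not be checked against markers for the same reason. Chromosomes were read from gene model IDs. Levels are CPM, counts scaled to a common library size after adjustment by the trimmed mean of M-values (TMM), and differences are read between animals within a locus. Counts scale with transcript length, so rankings and classes of loci by CPM reflect length as well as expression.

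Library totals ran from 32389220 to 52512095 counts in cyrbia and from 9330883 (animal 6) to 53219769 in demophoon, and the means did not differ beyond the spread (exact permutation test, two-sided, p = 0.543, 4 against 4 animals, where 0.0286 is the smallest p possible). Between 16695 and 17652 loci had a count in a cyrbia library and between 14016 and 18210 in a demophoon library (exact permutation test, two-sided, p = 0.743). Thinned to the total of animal 6, cyrbia libraries had 136 more loci on average (exact permutation test, p = 0.971). Unannotated loci took 9.5 ± 1.77% of counts in cyrbia and 10.9 ± 0.719% in demophoon (SD, n = 4, exact permutation test, p = 0.2). Cyrbia animals varied more among themselves, with a median SD of 0.388 on the log2(CPM + 0.5) scale over 7808 annotated loci, against 0.295 in demophoon, and animal 3 lay farthest from the others of its group.

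At a false discovery rate (FDR) below 0.05, 533 of 9254 tested annotated loci were differentially expressed (DE) in edgeR's quasi-likelihood test, which is 5.76%. Of these, 272 were higher in cyrbia (2.94% of those tested) and 261 were lower (2.82%). Among unannotated loci 967 of 6231 were DE, which is 15.5%, with 398 higher (6.39%) and 569 lower (9.13%). Over both classes 9.69% of tested loci were DE, 4.33% higher and 5.36% lower. The median log2 fold change of all tested loci was 0.08. The plot of fold change against level shows that the called loci spread over the whole range of expression.

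**Figure D1:**
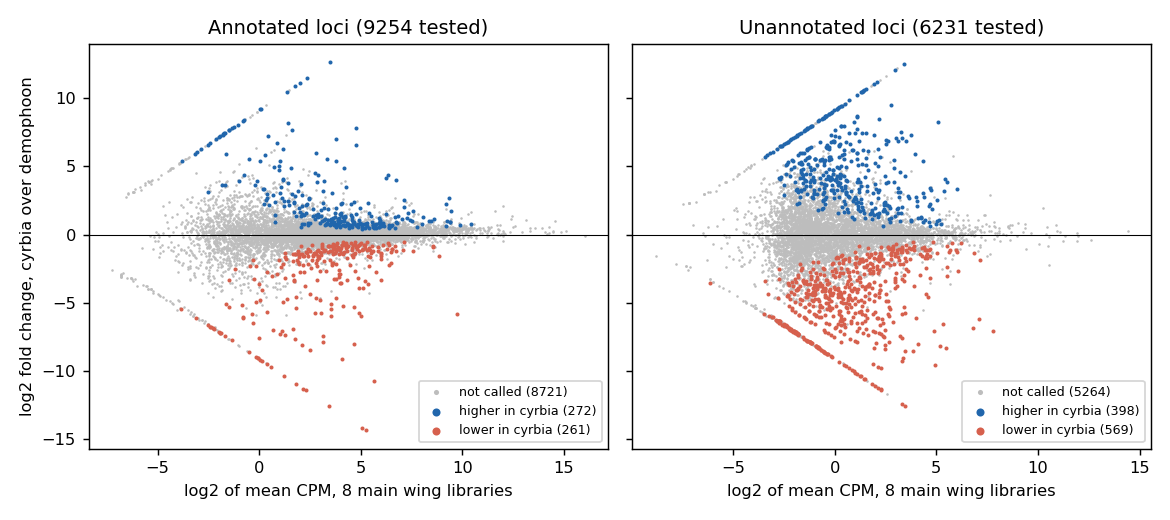
Log2 fold change of cyrbia over demophoon (vertical axis) against the log2 of the mean CPM of the 8 main wing libraries (horizontal axis) for each tested locus, annotated on the left and unannotated on the right, with loci higher in cyrbia in blue, lower in red and not called in grey. The straight diagonal edges are loci with no count in one subspecies, where the fitted value depends on a prior count, and the called loci number 272 and 261 on the left and 398 and 569 on the right.

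The number of annotated loci called higher changed when 1 animal was left out. It was 155 without animal 5, 134 without animal 6, 122 without animal 7 and 129 without animal 8, each a demophoon, and 136 when only the 8 libraries of this stage entered the fit. The number called lower was between 180 and 238 in the 4 fits without a demophoon animal. Without cyrbia animals 1 to 4 in turn, 199, 302, 191 and 198 were called higher, and 192, 213, 205 and 233 lower. Called in all 8 fits that left out 1 animal were 84 of the 272 higher and 147 of the 261 lower annotated loci, and 171 of 398 and 314 of 569 unannotated ones. With sex as a term in the fit 186 of the higher and 221 of the lower annotated loci kept their call. Within females alone, 2 cyrbia against 3 demophoon, 32 of the 272 and 61 of the 261 were called, and all 272 and all 261 kept their direction. These females are part of the groups that gave the calls.

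Fitted differences of the called loci were smaller in annotated than in unannotated loci. Among annotated loci 104 of the higher and 50 of the lower ones differed by under 2-fold, and 54 and 70 by 16-fold or more. Among unannotated loci only 9 and 18 differed by under 2-fold, and 222 and 326 by 16-fold or more. The medians of the called loci were 1.37 and −1.85 on the log2 scale in annotated loci, and 4.28 and −4.41 in unannotated ones. Fitted folds against a group with few or no counts depend on a prior count. In 47 of the higher and 50 of the lower annotated loci, and in 238 and 284 unannotated ones, the mean of the lower group was at or under the level of 3 counts per library. With that level in place of the lower group at these loci the medians were 1.31 and −1.77 in annotated and 2.99 and −3.32 in unannotated loci, and 29 and 53 annotated and 92 and 190 unannotated loci differed by 16-fold or more. Set against a 2-fold difference in place of none (glmTreat in edgeR), 49 annotated loci were higher and 81 lower, and 202 and 308 unannotated ones.

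**Figure D2:**
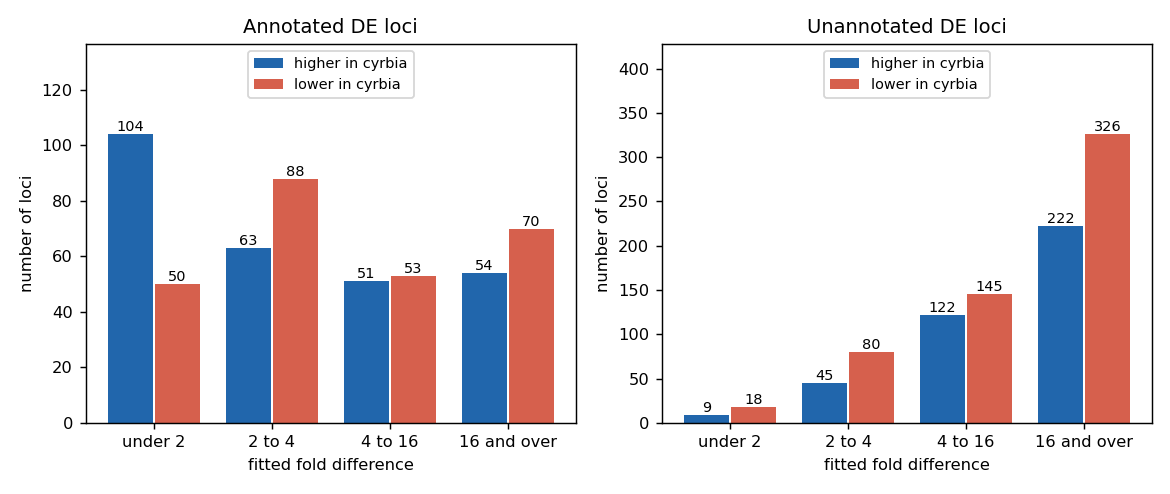
Number of DE loci (vertical axis, scaled separately in each panel) by size of the fitted fold difference (horizontal axis), higher in cyrbia in blue and lower in red. Annotated loci are most numerous under 4-fold, whereas 222 higher and 326 lower unannotated loci differ by 16-fold or more in the fit, and 92 and 190 when groups at or under 3 counts per library are set to that level.

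Annotated loci with a mean of 100 CPM or more over the 8 libraries were called in 4.36% of cases (29 higher, 9 lower), those of 10 to 100 CPM in 6.54% (126 and 124), those of 1 to 10 CPM in 5.94% (88 and 97) and those under 1 CPM in 4.15% (29 and 31). The median log2 fold changes of the called annotated loci, higher and lower, were 1.03 and −1.11 in the highest of these classes, 0.84 and −1.23 in the next, and 2.48 and −2.2 at 1 to 10 CPM. Under 1 CPM the lower group was at or under 3 counts per library at all 29 higher and at 26 of the 31 lower loci, so the fitted medians of 6.71 and −6.52 depend on the prior count, and set against 3 counts they were 2.23 and −2.89. In unannotated loci of 100 CPM or more, 5 of 84 were called (5.95%), all lower, with a median of −6.18. The shares called in the other unannotated classes were 17.3% at 10 to 100 CPM, 21.2% at 1 to 10 CPM and 11.9% under 1 CPM. The group that was lower for a called locus had a median of 4.62 CPM in annotated loci and 0.0828 CPM in unannotated ones. In counts, the annotated loci called higher made up 1.72 to 2.06% of a cyrbia library and 0.945 to 1.11% of a demophoon library, and those called lower 0.25 to 0.377% and 1.02 to 1.26%.

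Every animal of one subspecies lay above every animal of the other at 216 of the 272 higher and 220 of the 261 lower annotated DE loci, and at 319 of 398 and 460 of 569 unannotated ones. Over all tested loci cyrbia lay above demophoon in this way at 6.58% and below at 5.2% of annotated loci, and at 9.47% and 12.1% of unannotated ones. The groups overlapped at 56 higher and 41 lower annotated DE loci. The loci named below are without such overlap unless said otherwise.

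Of the annotated loci with counts in all 8 animals and at least 1 CPM on average in both groups, MSTRG.10901 on chromosome 11 had the largest fold in favour of cyrbia. Its levels were 34.6, 28, 65.2 and 10.6 CPM in cyrbia animals 1 to 4 and 1.67, 1.33, 0.944 and 0.836 CPM in demophoon animals 5 to 8. The lowest cyrbia animal was thus several fold above the highest demophoon animal, and the difference on the log2 scale was 4.86 (SE 0.68, edgeR FDR 0.000664). MSTRG.10093 on chromosome 10 had 126, 41.2, 308 and 154 CPM in cyrbia and 7.87, 6.76, 5.72 and 9.6 CPM in demophoon (log2 fold change 4.39, SE 0.51, edgeR FDR 0.000177). Cyrbia animals were far apart from each other here and the demophoon animals close together. MSTRG.22230 on the Z chromosome had 297, 203, 191 and 118 CPM in cyrbia and 4.39, 20.5, 11.1 and 15.8 CPM in demophoon (log2 fold change 3.97, SE 0.51, edgeR FDR 0.000321). Its highest and its lowest cyrbia value both belonged to males. These 3 loci kept their call under each alternative tried, wing region and the contrast within females included.

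The next loci in this order were MSTRG.10939 on chromosome 11, MSTRG.11775 on chromosome 12 and MSTRG.5831 on chromosome 6. MSTRG.10939 had 5.25, 4.55, 18.7 and 40.5 CPM in cyrbia against 1.01 to 1.33 CPM in demophoon (log2 fold change 3.9, SE 0.91, edgeR FDR 0.0152), and its call was lost without animal 4, which was the highest, within females and in the anterior hindwing. MSTRG.11775 rose to 76.1 CPM in animal 2 and 10.5 to 36.3 CPM in the other cyrbia animals, against 2.15 to 4.54 CPM in demophoon (log2 fold change 3.48, SE 0.53, edgeR FDR 0.0011). MSTRG.5831 had 5.49 to 12.6 CPM in cyrbia and 0.658 to 2.66 CPM in demophoon (log2 fold change 2.63, SE 0.56, edgeR FDR 0.00884). The fold at MSTRG.5831 was the smallest of the 6, and it was not called within females.

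**Figure D3:**
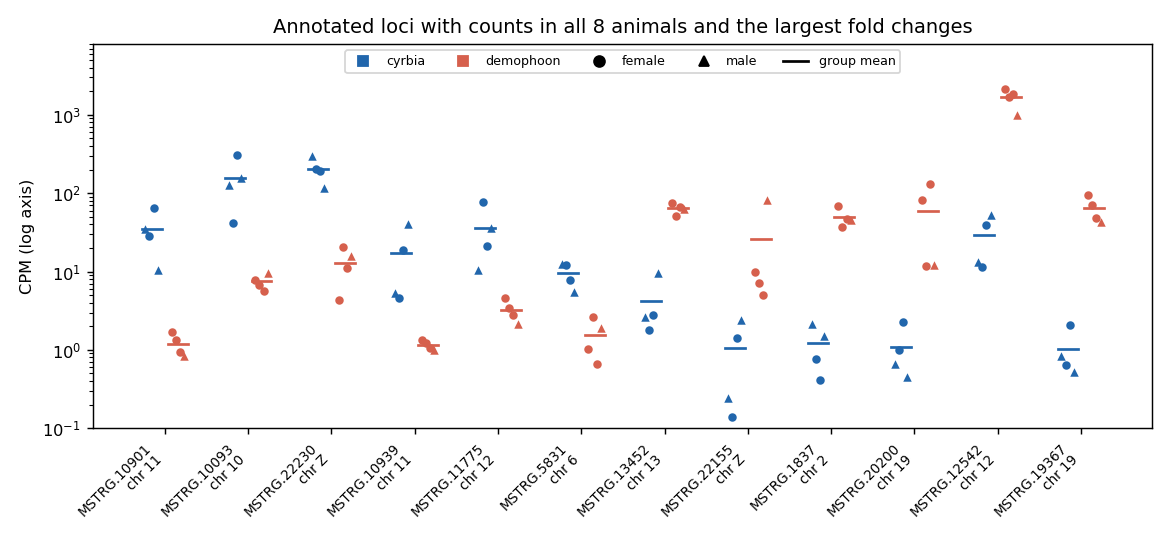
CPM on a log axis in each of the 8 animals for the 6 annotated loci with the largest fold in each direction among those with counts in all animals, cyrbia in blue and demophoon in red, with females as circles, males as triangles and group means as lines. The groups do not overlap at any of the 12 loci, and MSTRG.22155 has a single demophoon animal at 82.6 CPM with the other 3 at 5.07 to 9.87 CPM.

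The largest folds in the opposite direction exceeded those in favour of cyrbia. MSTRG.19367 on chromosome 19 had 0.826, 0.646, 2.07 and 0.525 CPM in cyrbia and 95.2, 71.1, 48.2 and 42.6 CPM in demophoon (log2 fold change −5.96, SE 0.85, edgeR FDR 0.000764). MSTRG.12542 on chromosome 12 was the most abundant of the annotated loci called lower without overlap, with 13.4, 11.4, 39.7 and 52.6 CPM in cyrbia and 2107, 1709, 1843 and 988 CPM in demophoon (log2 fold change −5.83, SE 1.13, edgeR FDR 0.0055). In demophoon the male was the lowest, and every cyrbia animal was far below it. The unannotated locus next to it, MSTRG.12543, had 0.751 to 7.16 CPM in cyrbia and 141 to 416 CPM in demophoon (log2 fold change −6.18, SE 1.2, edgeR FDR 0.00558). Both loci kept their calls under each alternative. Counts of neighbouring loci are not independent where one transcript covers both.

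MSTRG.20200 on chromosome 19, whose reference ID is novel_gene_240, had 0.666, 1.01, 2.28 and 0.455 CPM in cyrbia and 82.3, 11.6, 130 and 12.2 CPM in demophoon (log2 fold change −5.72, SE 0.79, edgeR FDR 0.000582). The demophoon animals fell into a high pair, animals 5 and 7, and a low pair, animals 6 and 8, the latter a female and a male, and both pairs were above every cyrbia animal. MSTRG.1837 on chromosome 2 had 0.41 to 2.16 CPM in cyrbia and 37.2 to 67.8 CPM in demophoon (log2 fold change −5.35, SE 0.84, edgeR FDR 0.00143). MSTRG.13452 on chromosome 13 had 1.8 to 9.59 CPM and 51.2 to 75.1 CPM (log2 fold change −3.93, SE 0.91, edgeR FDR 0.0147). Spread within demophoon was narrow at this locus. MSTRG.22155 on the Z chromosome had 0.14 to 2.41 CPM in cyrbia and 9.87, 7.07, 5.07 and 82.6 CPM in demophoon (log2 fold change −4.64, SE 1.16, edgeR FDR 0.0209), and its call was lost without animal 1, without animal 8, within females and with the 8 libraries alone.

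A further set of loci had counts in one subspecies and none in the other. Of the annotated DE loci 17 in each direction had counts in all 4 animals of one group and a count of 0 in all 4 of the other, and 48 and 64 of the unannotated ones did. Their levels were mostly low, with a median of 0.963 CPM in the expressing group for the annotated loci present in cyrbia and 1.93 CPM for those present in demophoon. The share of all tested loci with counts throughout one group and none in the other was not counted, so these numbers are not read as an excess. Folds for such loci are lower bounds, set against 3 counts per library, which is 0.131 CPM in demophoon and 0.0844 CPM in cyrbia, and they cover counting error only. MSTRG.15323 on chromosome 15 had 97, 63.3, 82 and 62.2 CPM in demophoon and no count in the cyrbia main wing, so it was at least 902-fold lower in cyrbia (edgeR FDR 0.00122). MSTRG.7826 on chromosome 8 had 32.1, 18.9, 16.6 and 18.6 CPM in demophoon and was at least 256-fold lower in cyrbia (edgeR FDR 2.25e-05). The cyrbia anterior hindwing at 50% had 0 to 0.136 CPM of it. The spread between the demophoon animals was small at both loci beside the gap to cyrbia. MSTRG.7175, also on chromosome 8, had 8.41 to 12.5 CPM and was at least 116-fold lower (edgeR FDR 0.0161), but 1 cyrbia animal at 70% had 7.66 CPM. Its call was lost within females, in the anterior hindwing and with both regions summed.

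In the other direction the expressing animals were less alike. MSTRG.13758 on chromosome 13 had 43, 32.4, 14.7 and 0.945 CPM in cyrbia, at least 174-fold higher on the mean (edgeR FDR 0.00414). Its call was lost within females, and demophoon had up to 0.224 CPM of it in the anterior hindwing. At 70% its means were 0.415 CPM in cyrbia and 0.0612 CPM in demophoon (edgeR FDR 0.335). MSTRG.5771 on chromosome 6 had 3.7, 4.63, 15.8 and 16.8 CPM, at least 78.3-fold higher (edgeR FDR 0.00366). MSTRG.8224 on chromosome 9 had 0.879, 0.281, 22.6 and 8.71 CPM, at least 62.2-fold higher on the mean (edgeR FDR 0.0277). Animal 3 carried most of the counts of MSTRG.8224, whose call was lost in 7 of the alternatives, the fit of the 8 libraries alone among them.

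Few of the annotated loci were without a count in a subspecies throughout. Over all 16 libraries of a subspecies, both regions and both stages, 3 of the 17 annotated loci present in cyrbia had no demophoon count and 2 of the 17 present in demophoon had no cyrbia count. For unannotated loci the numbers were 12 of 48 and 29 of 64. The 5 annotated loci, named after their values were seen, were MSTRG.17738, MSTRG.14232 and a gene model on chromosome 15 without an assembly number (evm.TU.Herato1507.301) on the cyrbia side, and MSTRG.4191 on chromosome 5 and MSTRG.1654 on chromosome 2 on the demophoon side. MSTRG.17738 on chromosome 17 had 3.65, 2.56, 7.47 and 6.89 CPM in the cyrbia animals at 50% and 19.2 ± 4 CPM at 70% (SD, n = 4), and was at least 39.4-fold higher at 50% (edgeR FDR 9.61e-05). MSTRG.4191 had 1.42 to 5.18 CPM in demophoon at 50%, at least 35.3-fold above cyrbia (edgeR FDR 0.00237). The remaining 3 had means of 0.348 to 0.789 CPM in the expressing group, and the bounds on their folds were 4.12 to 6.05.

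The 4 most abundant annotated loci called higher without overlap differed by under 2-fold. MSTRG.11201 on chromosome 11 had 760.4, 992, 1009.6 and 837 CPM in cyrbia and 532, 403, 491 and 466 CPM in demophoon (log2 fold change 0.93, SE 0.17, edgeR FDR 0.0035). MSTRG.650 on chromosome 1 had 660.1, 674, 886 and 1021 CPM against 508, 368, 385 and 387 CPM (log2 fold change 0.98, SE 0.17, edgeR FDR 0.00319). Both were called in every fit that left out 1 animal. MSTRG.13620 on chromosome 13 (1702 ± 330.5 against 1021 ± 108 CPM, SD, n = 4, log2 fold change 0.74, edgeR FDR 0.0174) and MSTRG.3210 on chromosome 5 (1168 ± 304 against 732 ± 30.3 CPM, log2 fold change 0.67, edgeR FDR 0.0442) had the highest levels of those called higher without overlap. Neither held with the 8 libraries alone, and MSTRG.3210 was lost without any single animal of this stage other than animal 2.

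On the demophoon side, the most abundant locus was MSTRG.12542, described above for its large fold. Next to it, MSTRG.10565 on chromosome 11 had 247, 231, 184 and 253 CPM in cyrbia and 276, 781, 838 and 849 CPM in demophoon (log2 fold change −1.58, SE 0.27, edgeR FDR 0.00243). Demophoon animal 5 was close to the cyrbia animals and the other 3 were well above them. MSTRG.6541 on chromosome 7 had 229 to 298 CPM in cyrbia and 356 to 555 CPM in demophoon (log2 fold change −0.89, SE 0.18, edgeR FDR 0.00593). MSTRG.13079 on chromosome 13 had 200.1 to 329.5 CPM and 419.7 to 542 CPM (log2 fold change −0.81, SE 0.18, edgeR FDR 0.0105). These 3 kept their calls when any 1 animal was left out, and were not called within females.

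Among the loci with the smallest p-values, MSTRG.10093, MSTRG.7826 and MSTRG.17738 were described above. MSTRG.18038 on chromosome 18 had 0.746, 0.281, 0.592 and 0.49 CPM in cyrbia and 17.5, 10.4, 15.6 and 11 CPM in demophoon (log2 fold change −4.68, SE 0.38, edgeR FDR 1.29e-05). MSTRG.656 on chromosome 1 had 2.53, 2.39, 3.62 and 1.71 CPM and 49.5, 21.4, 31.4 and 18.8 CPM (log2 fold change −3.56, SE 0.34, edgeR FDR 3.38e-05). MSTRG.18038 was lower in cyrbia under each alternative, and MSTRG.656 lost its call in the anterior hindwing libraries and in counts summed over both regions. On the cyrbia side MSTRG.18334 on chromosome 18 had 0.453, 0.421, 0.729 and 0.49 CPM and no count in demophoon, at least 4.01-fold higher (edgeR FDR 0.000222), a uniform but very low level.

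Unannotated loci were named by level, fold and counts in one subspecies in the same way. MSTRG.3380 on chromosome 5 had 110, 81.7, 44.9 and 86.4 CPM in cyrbia and 3.26, 5.02, 7.93 and 3.09 CPM in demophoon (log2 fold change 4.07, SE 0.73, edgeR FDR 0.00336). MSTRG.9543 on chromosome 10 had 44.9, 25.1, 191 and 76.4 CPM and 7.64, 6.45, 4.35 and 5.42 CPM (log2 fold change 3.82 with an SE of 0.5, edgeR FDR 0.0004). As at the annotated MSTRG.10093 of the same chromosome, animal 3 was the highest and animal 2 the lowest of the cyrbia animals. MSTRG.14571 on chromosome 14 (11.5 to 33.8 against 0.717 to 1.54 CPM, edgeR FDR 0.00523) and MSTRG.9417 on chromosome 10 (34.5 to 223 against 5.27 to 17.9 CPM, edgeR FDR 0.00982) were also higher. Both were called in every fit that left out 1 animal and not within females.

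In the opposite direction MSTRG.10000 on chromosome 10 had 0.453, 0.112, 9.54 and 2.69 CPM in cyrbia and 524, 499, 405 and 320 CPM in demophoon (log2 fold change −7.08, SE 1.69, edgeR FDR 0.0168). MSTRG.7705 on chromosome 8 had 0.107, 0.112, 5.44 and 2.17 CPM and 233, 245, 232 and 187 CPM (log2 fold change −6.83, SE 1.53, edgeR FDR 0.0123). At both, cyrbia animals 1 and 2 were almost without counts and animal 3 was the highest of the group. MSTRG.12136 on chromosome 12 had 35.9 to 91.9 CPM in cyrbia and 167 to 317 CPM in demophoon (log2 fold change −1.88, SE 0.37, edgeR FDR 0.00561).

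Several unannotated loci had counts in one subspecies only in the main wing at 50%. MSTRG.15081 on chromosome 15 had 6.15, 5.48, 5.87 and 12.7 CPM in cyrbia and none in demophoon, at least 57.8-fold higher (edgeR FDR 4.96e-05), and the same held at 70% (14.5 ± 3.47 CPM, SD, n = 4). MSTRG.14591 on chromosome 14 had 1.62 to 11.8 CPM (at least 41.8-fold, edgeR FDR 0.0108), and MSTRG.10787 on chromosome 11 had 2.89 to 13.1 CPM (at least 44.5-fold, edgeR FDR 0.04), with a call that was lost without any 1 animal of 50%. At 70% MSTRG.10787 was not confined to cyrbia, since demophoon animal 16 had 10.1 CPM and cyrbia 11.2 to 22.8 CPM (edgeR FDR 0.34). MSTRG.16235 on chromosome 16 had 16.2 to 31 CPM in demophoon and none in cyrbia (at least 259.5-fold lower, edgeR FDR 0.000459), and at 70% 1 cyrbia animal had 0.616 CPM of it. MSTRG.13449 on chromosome 13 had 9.67, 18.4, 40.1 and 11.7 CPM in demophoon and no cyrbia count at either stage (at least 237-fold lower, edgeR FDR 0.000346). MSTRG.8068 on chromosome 9 ran from 0.172 to 18.6 CPM in demophoon, so its bound of 115-fold holds for the mean only (edgeR FDR 0.0103), and at 70% 1 cyrbia animal had 0.299 CPM (edgeR FDR 0.108).

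The same contrast at 70% came from 8 other animals, 4 cyrbia males and 1 male and 3 female demophoon, in the same fit. No sex term entered this fit and no cyrbia female was sampled at 70%, so subspecies and sex cannot be fully told apart there. Of all tested annotated loci 2.37% were called higher and 3.7% lower at 70%. Of the annotated loci DE at 50%, 52 of the 272 higher and 118 of the 261 lower ones were called in the same direction. Of the unannotated loci 131 of 398 and 356 of 569 were, against 4.56% higher and 9.23% lower of all tested. The animals at 70% did not overlap, in the same direction, at 85 and 117 of the annotated DE loci, where 6.14% and 6.79% of all tested annotated loci did so. Fold changes were smaller at 70%, with medians of 0.45 and −0.98 over the annotated loci called higher and lower at 50%, and 2.22 and −3.21 over the unannotated ones (0.44, −0.91, 1.86 and −2.37 with groups at or under 3 counts per library set to that level). Since the loci were chosen for their difference at 50%, the smaller medians were not read as a change with stage.

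The 70% calls also changed when 1 animal was left out. With each of the 8 animals at 70% left out in turn, an alternative added after the data were seen, 35 to 52 of the higher and 86 to 108 of the lower annotated loci were called in the same direction, and 79 to 113 and 271 to 336 of the unannotated ones, the higher of which numbered 86, 79 and 82 without demophoon animals 13, 14 and 15. Demophoon animal 15, the only male of its group, was at a cyrbia level at several named loci. Without it these numbers were 35, 95, 82 and 289. At MSTRG.19367 it had 2.32 CPM, with 0.898 to 2.73 CPM in cyrbia at 70% and 54.6 to 71.6 CPM in the other 3 demophoon animals. MSTRG.15323 had 0.504 CPM in animal 15, 0.124 to 0.858 CPM in cyrbia and 117 to 140.2 CPM in the other 3. Animal 15 was also within the cyrbia range at MSTRG.1837 (2.55 CPM), MSTRG.13452 (7.02 CPM) and MSTRG.12542 (21.7 CPM), and at 3.5 CPM of MSTRG.12543 it was nearer to cyrbia (at most 1.67 CPM) than to the other 3 (119 to 453 CPM). These loci did not speak for all, since animal 15 lay among the other demophoon animals at MSTRG.20200 (153 CPM) and above them at MSTRG.18038 (19.5 CPM). The order was the opposite at MSTRG.10000 and MSTRG.7705, where animal 15 had 63.4 and 28.9 CPM and the other 3 demophoon animals 0.417 to 1.98 and 0.501 to 1.16 CPM, with cyrbia at 1.12 to 7.63 and 0.749 to 7.48 CPM. Over the 261 annotated loci lower at 50%, animal 15 alone of its group reached the cyrbia range at 21, against 8 for animal 13, 10 for animal 14 and 17 for animal 16. Over the 569 unannotated ones it did so at 11, against 22, 18 and 51.

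**Figure D4:**
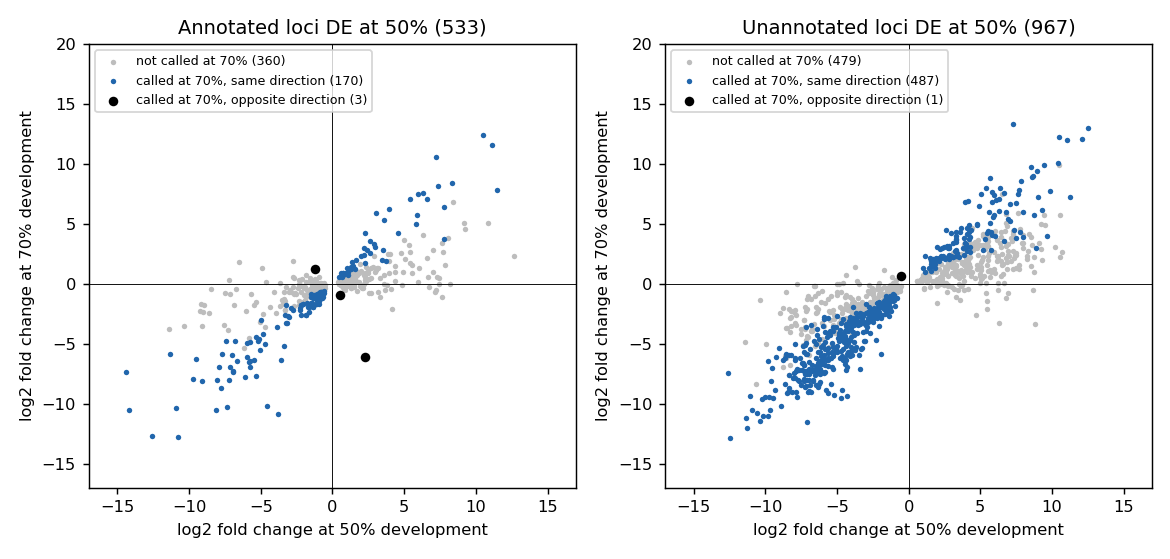
Log2 fold change of cyrbia over demophoon at 70% (vertical axis) against that at 50% (horizontal axis) for loci DE at 50%, annotated on the left and unannotated on the right, with loci called in the same direction at 70% in blue, in the opposite direction in black and not called in grey. In the annotated panel 52 of the 272 higher and 118 of the 261 lower loci are blue, and over both panels 4 loci are black.

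Some loci were called in the same direction at 70%. There MSTRG.18038 had 0.436 ± 0.156 CPM in cyrbia and 14.7 ± 4.88 CPM in demophoon (SD, n = 4, log2 fold change −5.04, edgeR FDR 4.16e-06), MSTRG.5831 had 6.53 ± 1.19 and 1.07 ± 0.772 CPM (2.59, edgeR FDR 0.00926), and MSTRG.20200 had 1.3 ± 0.392 and 160 ± 25.6 CPM (−6.96, edgeR FDR 0.00023). MSTRG.12542 had 6.51 to 44.3 CPM in cyrbia at 70% and 1730, 1561, 21.7 and 4442 CPM in demophoon animals 13 to 16. The male at 50%, animal 8, was not at a cyrbia level there.

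Other loci lost it. The stage by subspecies interaction was called at 8 of 15485 loci (0.0517%, with 1608 at an unadjusted p below 0.05), and 7 of these were among the annotated DE loci. The share of males in cyrbia differed between the stages and no sex term entered this contrast, so stage and sex cannot be told apart in it. At 70% MSTRG.10093 had 42.9 ± 12 CPM in cyrbia and 36.8 ± 12.8 CPM in demophoon (SD, n = 4), so that demophoon was higher and cyrbia lower than at 50% (interaction −4.17 on the log2 scale, edgeR FDR 0.026). MSTRG.18334 was at 236 ± 89.7 and 336 ± 91.6 CPM at 70%, far above its level at 50% in both subspecies, and the log2 fold change between subspecies was then −0.51 (interaction edgeR FDR 0.00713). The fitted interaction of −7.72 depends on a prior count, since demophoon had no count at 50%, and against 3 counts per library it was −2.51 or beyond. MSTRG.656 changed in the other way, since demophoon had 217 ± 44.9 CPM at 70% and cyrbia remained at 2.61 ± 0.725 CPM (interaction −2.83, edgeR FDR 0.026). MSTRG.10901 had 3.65 ± 3.09 and 3.72 ± 2.31 CPM at 70%, a log2 fold change of −0.05, but its interaction did not pass the test (edgeR FDR 0.0572).

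The anterior hindwing of the same 8 animals, the region with another scale type, was tested in a fit of its own. There 3.03% of tested annotated loci were called higher and 3.74% lower, and 7.09% and 10.5% of unannotated ones. Of the annotated main wing DE loci 145 of the 272 higher and 190 of the 261 lower ones were called there in the same direction, and 290 of 398 and 465 of 569 unannotated ones. These libraries share their animals with the main wing, so they do not replicate it. A direct test found a region by subspecies interaction at 5 of 18276 loci (0.0274%, with 1510 at an unadjusted p below 0.05), and 1 of them was DE in the main wing. This was MSTRG.10293 on chromosome 10, named after its values were seen. It had 15.2, 10.7, 9.47 and 5.56 CPM in the main wing of cyrbia and 2.52, 3.79, 2.43 and 6.31 CPM in that of demophoon (log2 fold change 1.44, SE 0.34, edgeR FDR 0.0165), with animal 8 above animal 4. In the anterior hindwing it had 9.94 ± 6.88 and 9.96 ± 2.51 CPM (SD, n = 4, interaction 1.62 on the log2 scale, edgeR FDR 0.0245), and its main wing call was lost without animal 1, 5 or 7.

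Chromosomes were set side by side because the study set expression beside a genetic map of iridescence. On the Z chromosome 34 of 323 annotated loci were DE (10.5%, 12 higher and 22 lower), and 61 of 253 unannotated ones (24.1%, 15 and 46). The other chromosomes had between 2.77% (chromosome 4) and 7.65% (chromosome 15) of annotated and between 10.9% and 19.1% of unannotated loci called. The Z thus held the highest share in both classes. The median log2 fold change of all its tested annotated loci was −0.13, where the other chromosomes had 0.05 to 0.18. The sexes were unequal, with 2 males of 4 in cyrbia and 1 of 4 in demophoon, and Z dose differs between the sexes in butterflies. With sex as a term the Z median was −0.18, and 24 of the 34 annotated calls held. No test was made of the chromosomes, since their loci share the same animals.

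Chromosome 20 had 22 of 584 annotated loci called (3.77%, 11 in each direction) and 46 of 262 unannotated ones (17.6%, 13 higher and 33 lower). MSTRG.21985 on the Z, an unannotated locus that the study's text names, had 6.18, 8.73, 6.22 and 3.08 CPM in cyrbia and 10.5, 9.93, 13.4 and 18.3 CPM in demophoon (edgeR FDR 0.0282), and its call was lost without animal 1, 3, 4, 7 or 8. The call was lost as well within females and with the 8 libraries of 50% alone, without or with sex as a term. MSTRG.21985 was also lower in cyrbia at 70% (8.03 ± 1.5 against 19.6 ± 4.76 CPM, SD, n = 4, log2 fold change −1.29, edgeR FDR 0.0134) and in the anterior hindwing of animals 1 to 8 (−1.23, edgeR FDR 0.00808).

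**Figure D5:**
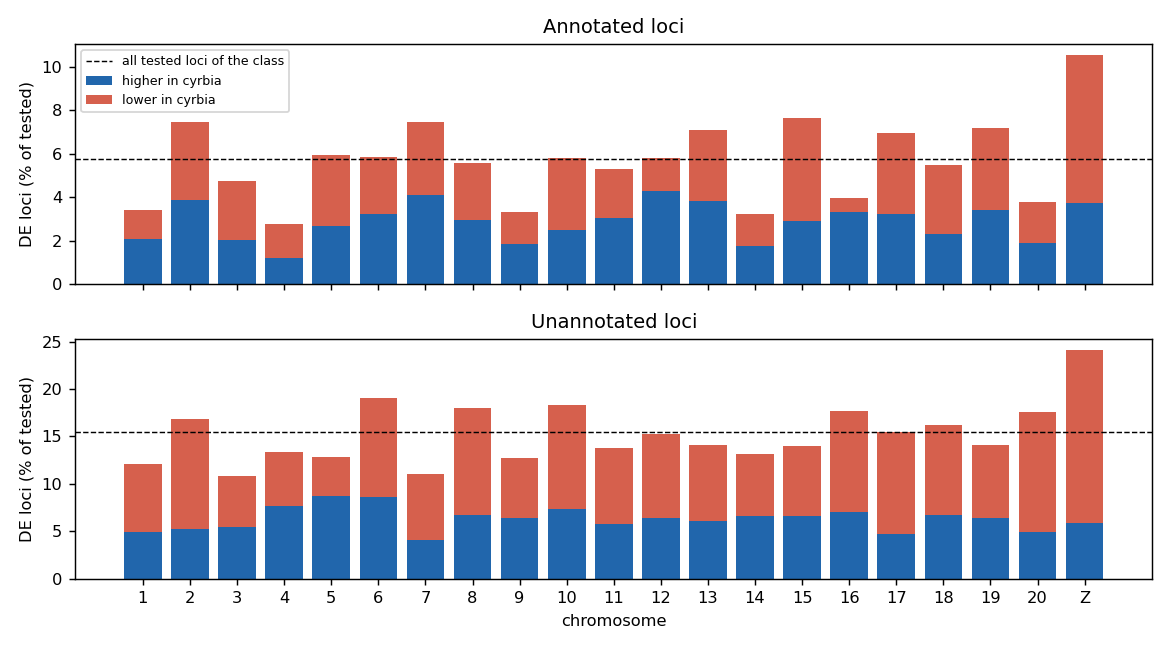
Share of tested loci that were DE (vertical axis, percent) by chromosome, for annotated loci above and unannotated loci below, stacked as higher (blue) and lower (red) in cyrbia, with dashed lines at the share over all loci of the class, 5.76% and 15.5%. The Z chromosome has the tallest bar in both panels, 10.5% and 24.1%.

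Adjacent loci were examined because transcript assembly can divide the reads of one transcription unit between neighbouring loci. Of 14881 adjacent pairs of tested loci 216 were both DE, 147 of them in the same direction and 69 in opposite directions. Over all adjacent pairs 53.1% had the same sign, against 68.1% of the pairs with both DE. Of the DE annotated loci that could be placed, 39 of 270 higher (14.4%) and 52 of 259 lower ones (20.1%) had a DE neighbour of the same direction. A DE neighbour of the opposite direction was found at 26 (9.63%) and 21 (8.11%). Of all tested loci 4.33% were DE higher and 5.36% lower, and most loci have a neighbour on each side. The share of all placed loci with a DE neighbour was not counted, so these numbers are not read as an excess.

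There were 129 runs of 2 neighbouring DE loci, 24 of 3, 9 of 4 and 3 of 5, and no expected number of runs was worked out. On the Z chromosome, the run of MSTRG.21505, MSTRG.21507, MSTRG.21509, MSTRG.21511 and MSTRG.21512 was lower in cyrbia at all but the first. MSTRG.21507, an annotated locus, had 60, 96.6, 42.3 and 58.2 CPM in cyrbia and 141, 119, 164 and 177 CPM in demophoon (log2 fold change −1.22, SE 0.25, edgeR FDR 0.00649). The unannotated MSTRG.21509 and MSTRG.21512 had log2 fold changes of −1.3 and −1.67 (edgeR FDR 0.00989 and 0.00832). The groups overlapped at the annotated MSTRG.21511 (15 to 19.9 against 17.2 to 40 CPM, edgeR FDR 0.039), whose call was lost without any 1 animal of 50% other than animal 6. The first of the run, MSTRG.21505, had 41.4 and 21.3 CPM in the cyrbia females and a count of 0 in both cyrbia males and in demophoon (edgeR FDR 0.0446). In the anterior hindwing of cyrbia animals 1 to 4 it ran from 0 to 42.9 CPM (22.5 ± 18.1 CPM, SD, n = 4). All 4 cyrbia animals at 70%, which were males, had 13.7 to 16.7 CPM of it in the main wing, so its counts were not confined to females. Its call at 50% was lost without either female and without any 1 of the demophoon animals.

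The run on chromosome 8, MSTRG.7185 to MSTRG.7189, was unannotated throughout and lower in cyrbia at each locus. No cyrbia animal had more than 0.0799 CPM at any of the 5, and demophoon means were 0.201 to 6.09 CPM (edgeR FDR 0.000718 to 0.0207). The cyrbia values were under 3 counts per library on the mean, so no fold is given. Demophoon animal 6 had no count of MSTRG.7188, so the groups overlapped there. On chromosome 4, MSTRG.3497, MSTRG.3498, MSTRG.3499 and MSTRG.3501 were lower in cyrbia and MSTRG.3495 was higher. MSTRG.3497 and MSTRG.3498 had very low levels, with means of 0.102 and 0.0405 CPM in cyrbia and 0.562 and 0.26 CPM in demophoon. The call was lost at MSTRG.3497 without animal 1, 2, 3, 4, 5 or 8 and with the 8 libraries alone, and at MSTRG.3498 without animal 2 or 6. MSTRG.3499 had 9.78, 1.54, 29 and 3.88 CPM in demophoon and at most 0.14 CPM in cyrbia (edgeR FDR 0.000719). The call of MSTRG.3495 (edgeR FDR 0.0453) rested on animal 2, at 21 CPM with the other cyrbia animals at 0.0228 to 1.64 CPM, and was lost without it. The groups overlapped there, since cyrbia animal 3 had 0.0228 CPM and demophoon animal 8 had 0.101 CPM.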

How the data were processed

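RNA was sequenced from 32 pupal wing libraries of Heliconius erato, 8 of which form the comparison. According to the submitters' processing notes, the authors used Trimmomatic (v. 0.38) for trimming, HISAT2 (v. 2.1.0) for alignment, SAMtools (v. 1.9) and, for transcript assembly, StringTie (v. 1.3.5). For edgeR no version stands there. Neither the genome build nor the use of strand in counting was given in the sources used here, so reads of a locus and of an antisense neighbour cannot be told apart. The deposited values were raw counts in 1 table of the whole series, without normalisation. StringTie computes them from transcript coverage, so neighbouring or overlapping loci may share out their reads differently in each library.

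The counts were tested with edgeR (v. 4.0.16, limma v. 3.58.1, R v. 4.3.3): normalisation by TMM, a low-count filter by filterByExpr, the quasi-likelihood F test in its robust form and Benjamini-Hochberg adjustment over 15485 loci, at an FDR below 0.05. The 16 main wing libraries were fitted as 4 group means, so that the animals at 70% added to the estimate of spread. The contrast within females came from the same 16 libraries, fitted as means by subspecies, stage and sex. All FDRs in the text are from edgeR. Region interactions came from all 32 libraries, fitted with a block for each animal. Single values per library were compared by exact permutation (scipy v. 1.17.1), and pandas (v. 2.3.3), numpy (v. 2.4.6) and matplotlib (v. 3.10.9) in Python (v. 3.11.15) were used for counts and figures. P-values measure the spread between these animals. Unannotated loci were placed on chromosomes by assembly number between annotated loci, which placed 10853 of 10853 annotated loci correctly when each was left out, and 18 annotated and 380 unannotated tested loci were not placed. None of the IDs matched the 14137 genes of a RefSeq table for the assembly Hedem_Duke_1.1 (0 matches).

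Loci were named by rule, among DE loci without overlap between groups. For annotated loci these were the 6 per direction with the largest fold and counts in all 8 libraries, the 3 with counts in one group only and the highest level there, the 4 with the highest mean and the 3 with the smallest p. For unannotated loci they were 3, 3 and 2 by the first of these rules in turn. MSTRG.21985 and the members of the 3 longest runs of neighbouring DE loci were added. This gave 59 loci. The comparison, the rules and the lists were chosen with earlier results of these data known. Depth was 9330883 to 53219769 counts per library, and counting intervals cover counting error only. Alternatives were the libraries, normalisation, count test, filter, sex, region, dispersion and each animal of 50% left out, and, added after the data were seen, each animal of 70% left out.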

Additional observations from a re-analysis of the deposited data

Results flagged for a closer look

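The subspecies difference differed between the stages, by the interaction term in edgeR, at MSTRG.10093 (−4.17 on the log2 scale), MSTRG.656 (−2.83) and MSTRG.18334. At MSTRG.18334 the fitted −7.72 depends on a prior count, since demophoon had no count at 50%, and the bound against 3 counts per library was −2.51. MSTRG.10565 had every demophoon animal above every cyrbia animal at 50% and every cyrbia animal above every demophoon animal at 70% (333 ± 10.8 against 233 ± 28.2 CPM, SD, n = 4, log2 fold change 0.52 at 70%), but the interaction did not pass the test (edgeR FDR 0.0573).

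Single animals stood apart from the other 3 of their group by Dixon's criterion at 11 of the 103 groups of named loci whose values were not all 0. No rate expected by chance can be set beside this number, since the loci were picked by their values and share the same animals. In demophoon, animal 5 was the high value at MSTRG.650 (508 CPM, others 368 to 387) and at MSTRG.7826 (32.1, others 16.6 to 18.9) and the low value at MSTRG.10565 (276, others 781 to 849), and animal 8 was high at MSTRG.22155 (82.6, others 5.07 to 9.87). In cyrbia, animal 4 was high at MSTRG.15081 (12.7 CPM, others 5.48 to 6.15) and MSTRG.13452 (9.59, others 1.8 to 2.82), animal 3 at MSTRG.10787 (13.1, others 2.89 to 4.23) and animal 2 at MSTRG.3495 (21, others 0.0228 to 1.64). The remaining 3 groups had counts in 1 animal only, at levels near 0. These were demophoon animal 8 at MSTRG.3495 (0.101 CPM) and cyrbia animal 3 at MSTRG.3501 (0.0228 CPM) and at MSTRG.7185 (0.0228 CPM).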

How the results depend on the processing

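No paired analysis was possible because each animal has its own number and the subspecies share none. In the order all, annotated higher, annotated lower, unannotated higher and unannotated lower, the DE counts were 1500, 272, 261, 398 and 569. They were 907, 136, 196, 207 and 368 with only the 8 libraries, 669, 76, 151, 171 and 271 with these and sex as a term, 294, 33, 68, 88 and 105 within females, 2892, 551, 487, 887 and 967 with DESeq2, and 2424, 343, 419, 763 and 899 with both regions summed per animal. A filter at 1 CPM in 4 libraries left 252 unannotated loci higher. Leaving out each of the 16 animals in turn gave 950 to 1553, 122 to 302, 180 to 274, 226 to 428 and 411 to 596 (the lowest totals without animals 8, 7 and 5). The unannotated loci higher at both stages, 131, were 86, 79 and 82 without animals 13, 14 and 15 and 89 to 113 without any other, and the other classes shared between stages stayed within 1.5 times (35 to 52, 86 to 108 and 271 to 336). RLE factors, no filter, sex as a term, the anterior hindwing libraries and a fit without robust estimation kept each count within 1.5 times. Of the 1500 loci, 800 were shared with the 8-library fit and 1493 with DESeq2. The causes were not tested. Of 1103 values of the 59 named loci under these alternatives, 968 kept their call, 135 lost it and 0 reversed, and 24 loci were called under each. With the animals of 70% left out in turn, 22 of 472 further values lost the call, at 6 loci that also lost it otherwise, and 0 reversed. A count of 0 allows up to 3 counts in any library, and in that of animal 6, the shallowest (9330883 counts), these stand for a higher CPM than in the others.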

Other observations

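At 4 loci, chosen after their values were seen, the subspecies difference was called in opposite directions at the 2 stages. MSTRG.7066 on chromosome 8 had 4.23 to 6.08 CPM in cyrbia and 3.28 to 3.69 CPM in demophoon at 50% (log2 fold change 0.52, edgeR FDR 0.0278), and 24.6 to 30.6 CPM against 47.3 to 53.7 CPM at 70% (−0.9, edgeR FDR 0.001, interaction FDR 0.0121). The locus thus rose in both subspecies between stages, and further in demophoon. MSTRG.20539 on chromosome 20 had 33.9 ± 16.5 and 80.2 ± 10.8 CPM at 50% and 117 ± 41.6 and 50.6 ± 11.2 CPM at 70% (SD, n = 4, interaction FDR 0.0666). The unannotated MSTRG.22304 on the Z had 23.3 ± 4.48 and 34.4 ± 2.5 CPM at 50% and 46.1 ± 6.06 and 29.4 ± 2.43 CPM at 70% (interaction FDR 0.0572). MSTRG.22095 on the Z had 1.93 ± 0.935 and 0.407 ± 0.172 CPM at 50%, and no cyrbia count and 0.242 ± 0.107 CPM at 70% (interaction FDR 0.026). The 50% calls of all 4 were lost in several alternatives, the 8 libraries alone among them. Sex was not a term in these contrasts, and cyrbia had only males at 70%.

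In 33 pairs an annotated DE locus had an unannotated DE neighbour that differed in the other direction. The log2 ratio of group means (with 0.5 CPM added to each) was nearer to 0 for the sum of the pair than for either part in 24 of them, and animals overlapped between the groups in 21 of the sums and not in 12. The ratio of a sum lies between those of its parts by construction. MSTRG.18551 on chromosome 18 had 20.4, 17.9, 47.7 and 15.9 CPM in cyrbia and 58.6 to 73.1 CPM in demophoon, while its neighbour MSTRG.18552 had 35.2, 27.6, 0 and 21.6 CPM in cyrbia and none in demophoon. Cyrbia animal 3, without a count at the neighbour, was the one nearest to demophoon at the annotated locus. Their sums were 46.5 ± 7.42 CPM in cyrbia and 65.2 ± 6 CPM in demophoon (SD, n = 4). MSTRG.16690 and MSTRG.16691 on chromosome 17 had 80 ± 17.6 and 59.1 ± 13 CPM in cyrbia and 45.8 ± 4.43 and 90.5 ± 3.36 CPM in demophoon, and their sums were 139 ± 22.5 and 136 ± 7.29 CPM. MSTRG.11046 and MSTRG.11047 on chromosome 11 had sums of 55.4 ± 7.21 and 42.3 ± 1.71 CPM. MSTRG.7706 and MSTRG.7705 on chromosome 8 differed from these, since their sums of 44.6 ± 7.14 and 256 ± 24.2 CPM stayed far apart. These pairs were chosen after their values were seen and the sums were not tested. Whether reads were divided differently between the loci of a pair was not tested.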
